A study of Mus musculus with 10 samples.

Results

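Neutrophil granule genes are the genes for the antimicrobial proteins that neutrophils and their marrow precursors pack into granules. The members described here were the 10 genes Elane, Mpo, Prtn3, Ctsg, Ngp, Camp, Ltf, Lcn2, S100a8 and S100a9, taken by symbol from a table of 57010 Ensembl gene identifiers. All 10 were found, each with 1 identifier, and all 10 reached the minimum level for the fit described below, a mean of 10 normalized reads per library. They were read in 4 groups of bone marrow-derived macrophages of the mouse, obtained by growing femoral marrow over 7 days in RPMI with 20 ng/mL of macrophage colony-stimulating factor (M-CSF). The WT unconfined group held 2 libraries from wild-type marrow, and the WKO unconfined group held 2 libraries from marrow of mice lacking WASp (Wiskott-Aldrich syndrome protein, an actin nucleation-promoting factor of blood cells encoded by Was). The WT confined group and the WKO confined group held 3 libraries each, from cells of the same 2 genotypes held for 1 h at a height of 3 µm under silicone micropillars. The labels call the unconfined cells controls and do not say whether they were also placed in the device. Strain, age, sex and the number of mice behind each library are not given in the sources used here. No marker-based sort of the cultures is described, so each library is a bulk sample of whatever cells the culture held. Nothing in the labels says that the libraries of a group came from separate animals or cultures, and the p-values below then measure only the spread between these libraries.

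Granulocyte precursors make granule proteins in waves as they mature. The serine proteases and myeloperoxidase of the azurophil, or primary, granules are transcribed in myeloblasts and promyelocytes, and the contents of the specific, or secondary, granules follow in myelocytes and metamyelocytes, when the early genes are shut off. S100a8 and S100a9 together form calprotectin, which fills the cytosol of neutrophils and is also found in monocytes. Mature macrophages grown in M-CSF make little of these products, and a marrow culture can carry over granulocytes or precursors. In bulk libraries such as these, fewer cells of a type and less RNA per cell cannot be told apart.

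The members were chosen by symbol from earlier results on these libraries, in which their levels and their differences between genotypes and with confinement had been seen, so their levels and differences are given as a description and no test of them is used in support of anything. They fall into 3 sets by role. The early set held Elane (neutrophil elastase), Prtn3 (proteinase 3), Ctsg (cathepsin G) and Mpo (myeloperoxidase, which makes hypochlorous acid). The late set held Ngp (neutrophilic granule protein), Camp (the precursor of the antimicrobial peptide CRAMP), Ltf (the iron-binding protein lactoferrin) and Lcn2 (lipocalin-2, which binds bacterial siderophores). The third set was the calprotectin pair.

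The promoters of 4 members are shown, 2 of early and 2 of late genes, because they hold examples of the motifs counted below. Each is the 250 bases before the RefSeq transcription start on GRCm38.p6, on the strand of the gene. Capitals mark matches, on either strand, to GAGGAA, a core bound by PU.1, and to TTGCNNAA, a core bound by C/EBP factors. Both factors are known regulators of granulocyte genes.
Elane: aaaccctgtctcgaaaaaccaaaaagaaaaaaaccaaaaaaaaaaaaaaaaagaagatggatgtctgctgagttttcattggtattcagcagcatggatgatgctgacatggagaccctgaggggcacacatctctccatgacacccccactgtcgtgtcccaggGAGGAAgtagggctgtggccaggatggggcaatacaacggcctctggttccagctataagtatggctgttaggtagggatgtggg
Prtn3: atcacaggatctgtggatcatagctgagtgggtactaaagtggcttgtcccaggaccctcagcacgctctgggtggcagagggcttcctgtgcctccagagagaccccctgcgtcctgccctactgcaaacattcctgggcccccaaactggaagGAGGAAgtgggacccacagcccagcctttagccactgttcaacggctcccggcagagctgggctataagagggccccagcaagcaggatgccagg
Ngp: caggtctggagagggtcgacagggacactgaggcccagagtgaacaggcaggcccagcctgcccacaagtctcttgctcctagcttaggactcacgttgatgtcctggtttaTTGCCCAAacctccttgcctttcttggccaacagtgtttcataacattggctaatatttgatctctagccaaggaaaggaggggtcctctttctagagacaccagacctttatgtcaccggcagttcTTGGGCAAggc
Ltf: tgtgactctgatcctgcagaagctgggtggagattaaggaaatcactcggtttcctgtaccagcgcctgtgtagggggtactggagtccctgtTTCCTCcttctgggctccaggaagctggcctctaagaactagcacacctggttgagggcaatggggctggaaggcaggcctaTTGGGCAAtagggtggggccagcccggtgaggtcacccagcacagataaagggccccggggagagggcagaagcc
The Elane stretch lies at chr10:79886062-79886311, the Prtn3 stretch at chr10:79879417-79879666, the Ngp stretch at chr9:110419558-110419807 and the Ltf stretch at chr9:111019042-111019291, all on the plus strand. GAGGAA lay 85 to 80 bases before the start of Elane and 95 to 90 bases before that of Prtn3. TTGCNNAA lay 138 to 131 and 11 to 4 bases before the start of Ngp and 75 to 68 bases before that of Ltf, which also held GAGGAA at 157 to 152. By the GENCODE M21 gene positions given below, the Prtn3 window lies wholly inside its gene. The Elane, Ngp and Ltf windows end inside theirs, and the Ngp match nearest the RefSeq start falls inside Ngp.

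GAGGAA was present in the promoters of 4 of the 4 early members, in those of 2 of the 4 late members (Lcn2 and Ltf) and in that of S100a8, against 23.3% of 32851 promoters of the same length. TTGCNNAA was present in 0 of the 4 early promoters, in 3 of the 4 late ones (Lcn2, Ngp and Ltf) and in that of S100a9, against 9.56% of all. Of 2 further motifs searched on both strands, TGTGGT, a RUNX core, was found for Ctsg and S100a9 and in 4614 of the 32851 promoters, and the motif AGATAA, which is bound by factors of the GATA family, for Ltf and S100a9 and in 9.99% of all. None of the matches in the members overlapped another. A match is a stretch of letters and not a measured binding site, and all 10 members had a RefSeq promoter of this length.

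Several members are neighbours in the genome (GRCm38, GENCODE M21). Prtn3 and Elane lie in tandem on the plus strand of chromosome 10, at 79874476 to 79883174 and at 79886247 to 79888215, with 3072 bp between them. S100a8 (chromosome 3, 90668978 to 90670035, plus strand) and S100a9 (90692632 to 90695721, minus strand) are 22596 bp apart. Camp (109847379 to 109849617, minus strand), Ngp (110419747 to 110423012, plus strand) and Ltf (111019271 to 111042767, plus strand) follow each other on chromosome 9 at distances of 570129 and 596258 bp. Mpo lies on chromosome 11 (87793581 to 87804413, plus strand), Ctsg on chromosome 14 (56099881 to 56102574, minus strand) and Lcn2 on chromosome 2 (32384633 to 32388252, minus strand). The use of strand in counting is not given in the sources used here, and 2 members overlap exons of genes on the other strand. For Mpo this is Gm11505, which had 0 to 3 reads in any library. For Prtn3 it is Plppr3, which had normalized read counts of 7.50 to 60.2. Its range was 12.3 to 20.2 in WT unconfined, 40.3 to 60.2 in WKO unconfined, 7.50 to 12.9 in WT confined and 9.47 to 57.3 in WKO confined libraries, but the overlap covers only 159 of the 1732 exon bases of Prtn3, in its first annotated exon. Reads from those bases cannot be told apart. In a search with the longest transcript of each member, only Mpo, with Gm11505, shared a stretch of at least 100 bases at 95% identity or more with a transcript of another gene. That search did not cover all exon bases of Prtn3 and did not return its overlap with Plppr3.

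The libraries held between 13295701 and 19329908 reads assigned to genes, and 3 reads, taken as the smallest level counted as detected, equal a normalized read count of 2.35 to 3.59. Was stood at 1308 to 1649 in the 5 WT libraries and at 96.9 to 154 in the 5 WKO libraries, as labelled. The 18 macrophage markers listed (Adgre1, Csf1r, Cd68, Lyz2 and others) were all expressed, with summed levels of 498388 to 652030 normalized reads per library. Libraries that stood apart among the granule genes were WT confined replicate 6, the lowest of the 10 for 9 of the 10 members, and WKO confined replicate 5, which stood far below the other 2 WKO confined libraries for every member. Values with and without these 2 libraries, which were picked for their low granule gene levels, are given below. The labels give no batch for any library.

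Per kilobase of exon, the mean normalized read count over the 10 libraries fell from S100a9 (6411) over Ngp (4109), S100a8 (2078), Ltf (1140.5), Lcn2 (499) and Camp (464) to Mpo (83.04), Elane (68.5), Prtn3 (43.2) and Ctsg (17.1). Every late and S100 member thus exceeded every early member per unit of length. Without regard to length, Ngp ranked 454th among the 12455 genes with a mean of at least 10, while Ctsg ranked 11602nd.

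**Figure D1:**
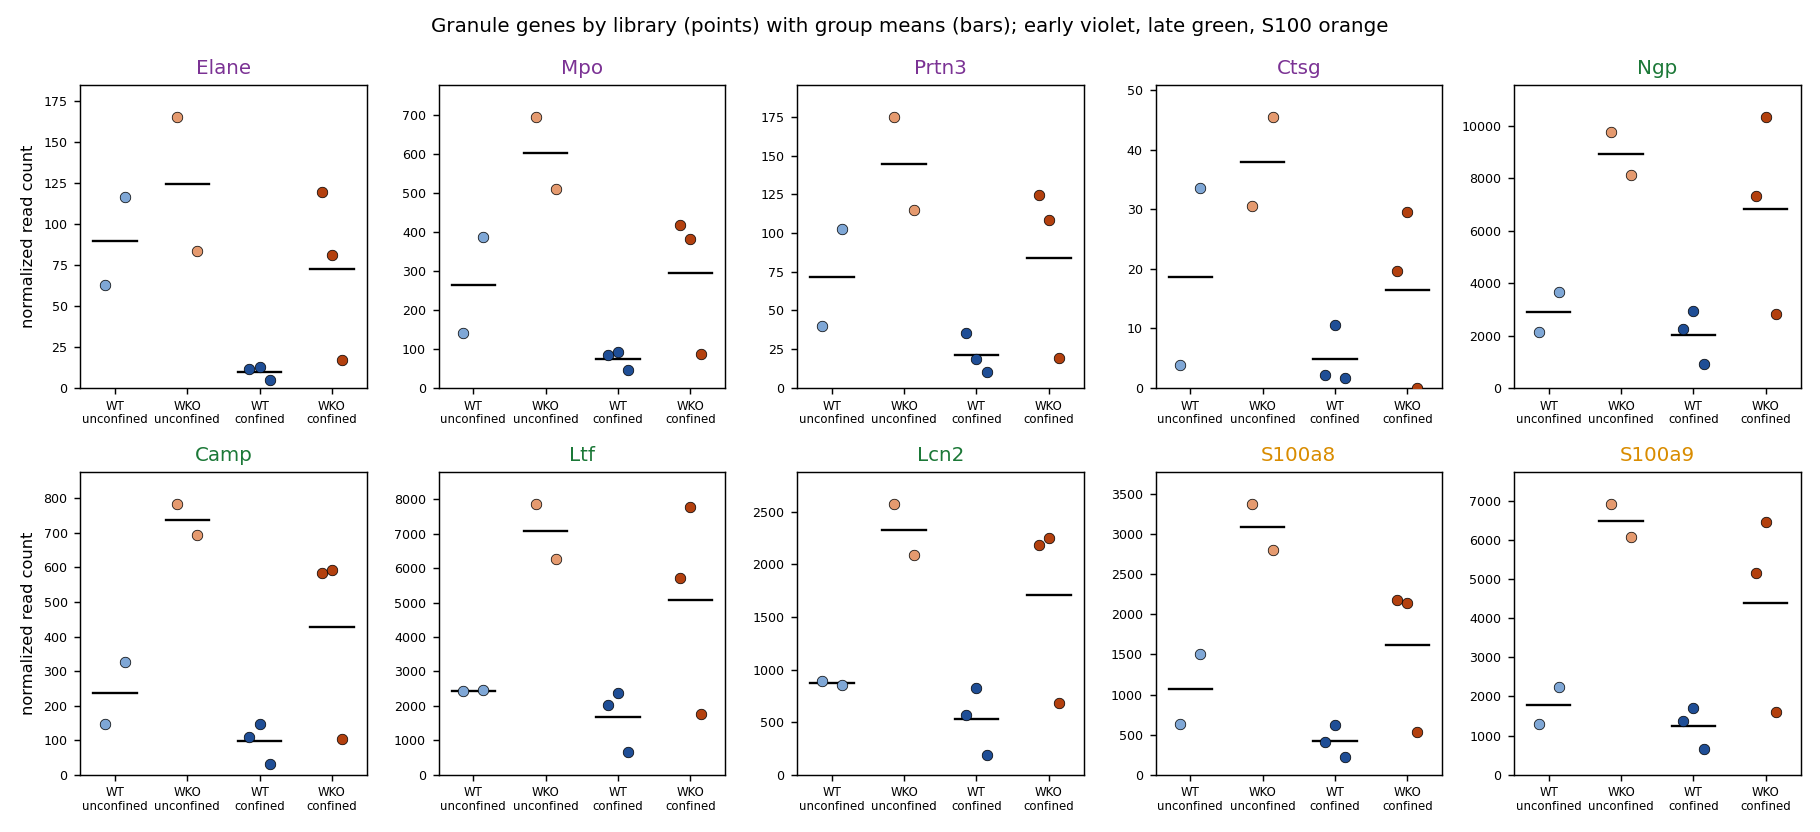
Normalized read count (linear axis from 0) of the 10 granule genes in each library, as points by group, with bars at the group means; gene names are violet for early, green for late and orange for S100 members. In the WKO confined group 1 library (replicate 5) lies far below the other 2 for each gene, for example 2835 against 7311 and 10327 for Ngp.

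Among the early genes, Mpo was the most abundant per length. Its normalized read count was 141 and 388 in WT unconfined replicates 1 and 3, 695 and 509.98 in WKO unconfined replicates 1 and 3, 84.6, 92.7 and 45.8 in WT confined replicates 2, 3 and 6, and 419, 381 and 87.5 in WKO confined replicates 1, 2 and 5. Both WKO unconfined libraries lay above both WT ones, all WT confined libraries lay below all WT unconfined ones, and the confined genotypes overlapped through WKO replicate 5 alone. The group means were 264 ± 175 (SD, n = 2) for WT and 602 ± 131 (n = 2) for WKO unconfined, and 74.4 ± 25.1 (n = 3) for WT and 296 ± 181 (n = 3) for WKO confined.

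Elane, which encodes the main elastase of the azurophil granule, had its group means in another order with all libraries kept. In the same order of libraries its normalized read count was 62.7 and 116 in WT unconfined, 165 and 83.6 in WKO unconfined, 11.8, 12.9 and 4.82 in WT confined, and 119, 81.1 and 16.8 in WKO confined cells. The unconfined genotypes overlapped, while the WT confined libraries lay below every one of the other 7 libraries. Elane was the only member for which the confined groups did not overlap with all libraries kept. The group means were 89.4 ± 37.8 (SD, n = 2), 124 ± 57.4 (n = 2), 9.84 ± 4.38 (n = 3) and 72.4 ± 51.8 (n = 3), so the ratio of WKO to WT means was 1.39 unconfined and 7.36 confined. Without WKO confined replicate 5 the WKO confined mean of Elane was 100, above that of WT unconfined, as it was for Mpo. With all libraries kept, the group means of Ctsg stood in the same order as those of Elane.

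Prtn3, the tandem neighbour of Elane, stood at 39.9 and 103 in WT unconfined, 175 and 115 in WKO unconfined, 35.4, 18.8 and 10.4 in WT confined, and 125, 108 and 19.2 in WKO confined libraries. Its WKO unconfined libraries lay above the WT ones, and its confined genotypes again overlapped through WKO replicate 5. Ctsg was the weakest member, with 4 and 35 reads in WT unconfined, 31 and 44 in WKO unconfined, 2, 9 and 2 in WT confined, and 25, 28 and 0 in WKO confined libraries. In all, 2 WT confined libraries and 1 WKO confined library were under 3 reads. The genotypes overlapped in both conditions, and the Ctsg differences below rest on few reads.

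The late genes stood at higher levels. Ngp had normalized read counts of 2129.8 and 3642 in WT unconfined, 9763 and 8111 in WKO unconfined, 2243, 2941 and 911 in WT confined, and 7311, 10327 and 2835 in WKO confined libraries. Ltf had 2418 and 2462 in WT unconfined, 7864 and 6282 in WKO unconfined, 2020.5, 2367 and 669 in WT confined, and 5725, 7768 and 1771 in WKO confined libraries. For both genes the WKO unconfined libraries and WKO confined replicates 1 and 2 were the 4 highest of the 10, with a gap below them: the fourth highest was 7311 and the fifth 3642 for Ngp, and 5725 and 2462 for Ltf. The group means of Ngp were 2886 ± 1069 (SD, n = 2) for WT and 8937 ± 1168 (n = 2) for WKO unconfined, and 2032 ± 1031 (n = 3) for WT and 6824 ± 3769.5 (n = 3) for WKO confined. The SD of the WKO confined group was thus over 3 times that of the other groups, with replicate 5 the low library.

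Lcn2 had normalized read counts of 894 and 848 in WT unconfined, 2574 and 2088 in WKO unconfined, 566, 824 and 187 in WT confined, and 2188, 2252 and 681 in WKO confined libraries. Camp, the late gene with the lowest mean, had 147 and 326 in WT unconfined, 783 and 693 in WKO unconfined, 110.3, 148 and 32.1 in WT confined, and 583, 593 and 104 in WKO confined libraries. The same 4 WKO libraries were the highest for both. WKO confined replicate 5 fell within the range of the WT confined libraries for all 4 late genes, and below both WT unconfined libraries for Camp, Ltf and Lcn2.

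The calprotectin genes followed the same pattern of libraries. S100a8 stood at 628 and 1511 in WT unconfined, 3376 and 2805 in WKO unconfined, 410.3, 624 and 215 in WT confined, and 2181, 2141 and 529.6 in WKO confined libraries. S100a9 stood at 1297 and 2247 in WT unconfined, 6919 and 6072 in WKO unconfined, 1381, 1705 and 653 in WT confined, and 5151, 6450.4 and 1592 in WKO confined libraries. Within a library the ratio of S100a8 to S100a9 normalized read counts ranged from 0.297 to 0.672, a far narrower range than that of either gene across libraries, where the highest library was 15.7 times the lowest for S100a8 and 10.6 times for S100a9. The ratio of Ltf to Ngp likewise stayed between 0.625 and 1.14, while the highest library was 11.8 times the lowest for Ltf and 11.3 times for Ngp. The group means of S100a9 were 1772 ± 672 (SD, n = 2) for WT and 6496 ± 599 (n = 2) for WKO unconfined, and 1246 ± 538 (n = 3) for WT and 4398 ± 2515 (n = 3) for WKO confined.

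**Figure D2:**
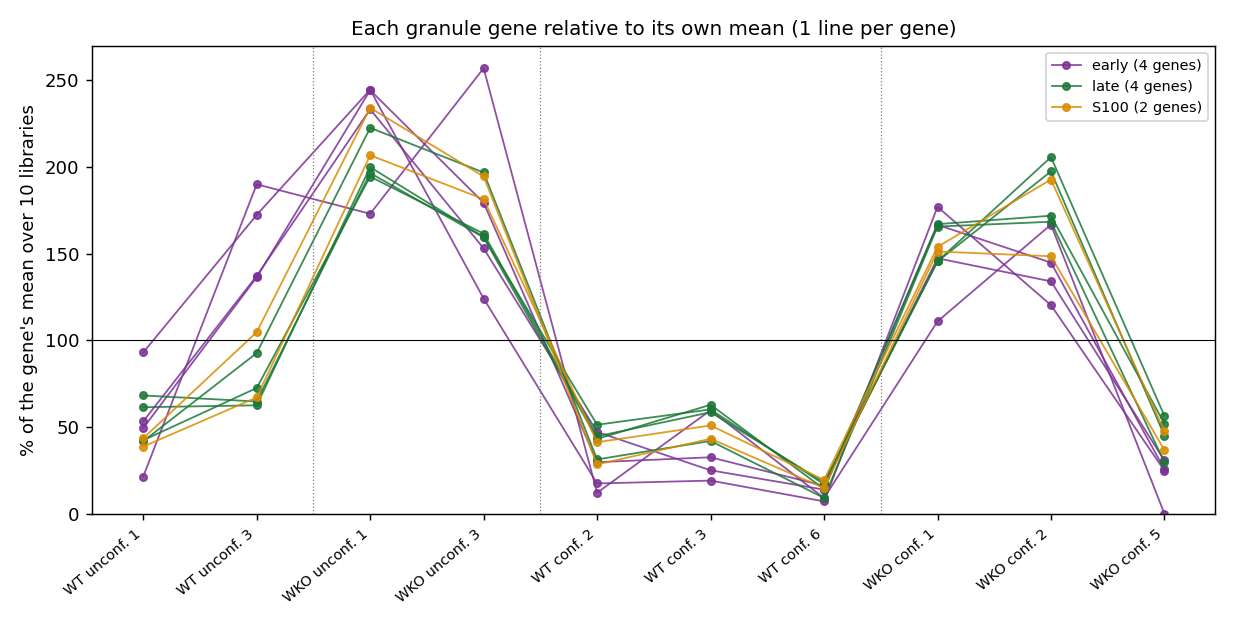
Each granule gene in each of the 10 libraries as a percentage of its own mean over the libraries (linear axis), with 1 line per gene (early violet, late green, S100 orange) and dotted lines between groups; the lines join points to show each gene and imply no order of libraries. The lines peak in the WKO unconfined libraries and in WKO confined replicates 1 and 2, and lie lowest in WT confined replicate 6, where Ngp is at 911 and Elane at 4.82; Ctsg alone is lowest in WKO confined replicate 5, at 0 reads.

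Among the members, 7 (Prtn3, Ngp, Camp, Ltf, Lcn2, S100a8 and S100a9) had the 2 WKO unconfined libraries and WKO confined replicates 1 and 2 as their 4 highest libraries. For Elane, Mpo and Ctsg, WT unconfined replicate 3 took the place of 1 of these. The highest library exceeded the lowest by 10.6 (S100a9) to 34.2 (Elane) times among the 9 members with reads in every library. The replicates of a group differed by member: WT unconfined replicate 1 stood at 0.113 (Ctsg) to 0.540 (Elane) of replicate 3 for the early genes, at 0.416 (S100a8) to 0.585 (Ngp) for S100a8, Camp, S100a9 and Ngp, and at 0.982 for Ltf and 1.05 for Lcn2. WKO confined replicate 5 stood at 0.164 (Prtn3) to 0.321 (Ngp) of the mean of replicates 1 and 2 for the 9 members it had reads for. WT confined replicate 6 stood at 0.249 (Camp) to 0.517 (Mpo) of the mean of replicates 2 and 3.

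The first comparison the design allows is that of the genotypes in unconfined culture. All 10 members had a higher mean in WKO, by ratios of means from 1.39 (Elane) to 3.67 (S100a9). The WKO libraries lay above the WT libraries without overlap for 8 of the 10, the exceptions being Elane and Ctsg; of all 12455 genes tested, 22.2% were higher in WKO without overlap. On the scale of log2(normalized read count + 1), the differences were 1.92 (SE 0.57) for S100a9, 1.74 (SE 0.81) for Camp, 1.68 (SE 0.57) for Ngp, 1.66 (SE 0.65) for S100a8 and 0.46 (SE 0.79) for Elane. The median difference was 1.24 over the early genes, 1.60 over the late genes and 1.79 over the S100 pair, beside 0.00 over all genes tested. Without WT unconfined replicate 1 the early median was 0.30, and without WKO unconfined replicate 1 the difference of Elane was -0.03.

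In confined cells all 10 members again had the higher mean in WKO, with ratios of means from 3.02 (Ltf) to 7.36 (Elane). The median log2 difference was 1.72 over the early genes, 1.73 over the late genes and 1.76 over the S100 pair, beside 0.00 over all genes tested. With all libraries kept, only Elane was higher without overlap, 1 of 10, where 10.7% of all genes were. Without WT confined replicate 6 and WKO confined replicate 5, a choice made after the data were seen, 10 of 10 were, where 21.7% of all genes were, and the ratios of means ran from 3.08 to 8.11. The log2 difference was 2.47 (SE 0.64) for Elane, 2.02 (SE 0.66) for Camp, 1.75 (SE 0.51) for Lcn2 and 0.91 (SE 1.23) for Ctsg, which was -0.01 without WKO confined replicate 2.

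**Figure D3:**
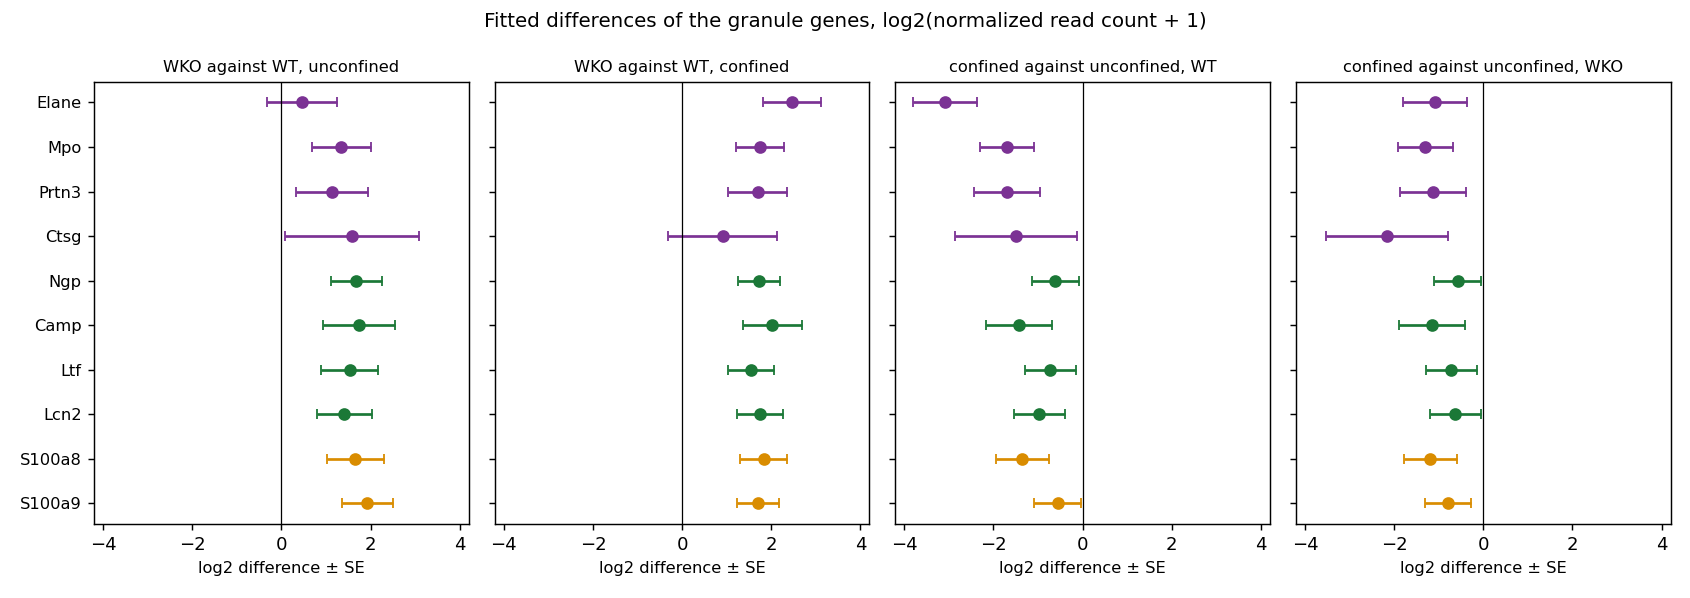
Fitted difference of each granule gene on the log2(normalized read count + 1) axis, with bars of 1 SE from limma, in 4 panels: WKO minus WT unconfined, WKO minus WT confined, and confined minus unconfined in WT and in WKO (early violet, late green, S100 orange). All points lie right of 0 for the genotypes, from 0.46 to 2.47, and left of 0 for confinement, with Elane in WT at -3.09.

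Confinement of WT cells was accompanied by lower means of all 10 members, with sets that overlapped in size. The confined mean was 0.110 of the unconfined one for Elane, the lowest ratio, and 0.704 for Ngp, the highest. WT confined libraries lay below WT unconfined libraries without overlap for 6 of the 10 (Elane, Mpo, Prtn3, Ltf, Lcn2 and S100a8), where 17.7% of all genes did. The nearest confined and unconfined libraries were close for S100a8 (624 and 628), Ltf (2367 and 2418) and Lcn2 (824 and 848). The log2 difference was -3.09 (SE 0.72) for Elane, -1.70 (SE 0.61) for Mpo, -1.69 (SE 0.74) for Prtn3 and -1.50 (SE 1.37) for Ctsg. Camp of the late set, at -1.43 (SE 0.74), and S100a8, at -1.35 (SE 0.59), lay close to these, while Lcn2 stood at -0.97 (SE 0.57), Ltf at -0.73 (SE 0.58), Ngp at -0.61 (SE 0.52) and S100a9 at -0.56 (SE 0.52). The median was -1.70 over the early genes, -0.85 over the late genes and -0.96 over the S100 pair, beside -0.01 over all genes tested, and the difference between the sets was not tested. Without WT unconfined replicate 1 the early median was -2.68. Without the 2 low libraries the ratios ran from 0.138 to 0.899, with 6 of 10 again lower without overlap, where 23.3% of all genes were.

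In WKO cells the confined means were also lower for all 10 members, at 0.431 (Ctsg) to 0.764 (Ngp) of the unconfined ones. These ratios rest in large part on replicate 5: without it they ran from 0.646 to 0.987. The libraries did not overlap for 4 of the 10 (Mpo, Ctsg, Camp and S100a8), where 13.8% of all genes were lower without overlap, and for 4 of the 10 without replicate 5, where 19.1% of all genes were. For Ctsg the nearest confined and unconfined libraries were close, at normalized read counts of 29.5 and 30.6. The median log2 difference was -1.21 over the early genes, -0.67 over the late genes and -0.99 over the S100 pair, beside -0.01 over all genes tested. Each group serves in both a genotype and a confinement comparison, so the 4 sets of differences are not independent of each other.

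The difference between the genotypes in their response to confinement had a median of 0.48 on the log2 scale over the early genes, 0.16 over the late genes and -0.03 over the S100 pair, beside 0.01 over all genes tested. Its widest values were 2.01 (SE 1.02) for Elane and -0.66 (SE 1.94) for Ctsg. Among all 12455 genes limma called 0 for this difference, with 258 at an unadjusted p under 0.05, and edgeR and DESeq2 also called 0.

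In the fit across all genes, limma at an adjusted p under 0.05 called 0 of the 10 members in each of these 5 comparisons, where it called 0.145% of all genes for genotype unconfined, 2.59% for genotype confined, 1.16% for confinement in WT, 1.72% for confinement in WKO and 0% for the difference between these. At an unadjusted p under 0.05 the member counts were 5, 9, 4, 0 and 0 in the same order. Among all 12455 genes the counts in limma were 1196, 2087, 1523, 1758 and 258. edgeR's quasi-likelihood test on the recovered reads called 1 member, Elane, for genotype confined and 0 in the other comparisons, with 6, 9, 4, 0 and 1 at an unadjusted p under 0.05. Over all genes edgeR called 319 for genotype confined, with 1179, 2132, 1491, 1769 and 261 at an unadjusted p under 0.05. DESeq2 called 6 for genotype confined (Elane, Mpo, Ngp, Prtn3, S100a8 and S100a9), 1 for confinement in WT (Elane) and 0 elsewhere, with 3, 9, 3, 0 and 1 at an unadjusted p under 0.05. Over all genes DESeq2 called 775 for genotype confined and 333 for confinement in WT. Its counts over all genes at an unadjusted p under 0.05 were 1179, 2066, 1502, 1762 and 260. These counts turned on single libraries. Without WKO confined replicate 5, limma called 1 (S100a9) for genotype unconfined, 9 (all but Ctsg) for genotype confined and 2 (Elane and Mpo) for confinement in WT, and without WKO confined replicate 1 it called Elane for confinement in WT. Of all genes limma called 141, 419 and 397 in these comparisons without replicate 5, and 330 for confinement in WT without replicate 1. Without both WKO confined replicate 5 and WT confined replicate 6, limma called 6 (the late genes and the S100 pair), 9 and 1 (Elane) for genotype unconfined, genotype confined and confinement in WT. Of all genes it then called 203, 273 and 298. Both libraries were picked for their low granule gene levels, so more member calls without them are no test of the members. The members themselves were chosen with their differences known, so none of the member counts in this paragraph is a test of them.

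The balance of early against late transcripts within a library does not depend on the scaling between libraries. The early sum was 4.42% and 8.79% of the late sum in WT unconfined replicates 1 and 3, and 5.07% and 4.39% in WKO unconfined replicates 1 and 3. It was 2.71%, 2.15% and 3.48% in WT confined replicates 2, 3 and 6, and 4.32%, 2.87% and 2.29% in WKO confined replicates 1, 2 and 5. Confined libraries lay below unconfined libraries of their genotype without overlap in both genotypes, though in WKO the nearest pair was 4.32% and 4.39%. The group means were 6.61% ± 3.09 (SD, n = 2) and 4.73% ± 0.484 (n = 2) unconfined and 2.78% ± 0.670 (n = 3) and 3.16% ± 1.05 (n = 3) confined, for WT and WKO in turn, and within either condition the genotypes overlapped. Within the late set, the ratio of Camp to Ngp normalized read counts was 0.0691 and 0.0896 in WT unconfined and 0.0492, 0.0503 and 0.0353 in WT confined libraries, and 0.0802 and 0.0854 in WKO unconfined and 0.0797, 0.0574 and 0.0368 in WKO confined libraries. The S100 sum was 34.4% and 51.6% of the late sum in WT unconfined, 49.1% and 51.7% in WKO unconfined, 36.3% to 48.3% in WT confined and 39.4% to 46.4% in WKO confined libraries. The WKO unconfined libraries lay above all 6 confined ones, and the WT unconfined libraries spanned nearly the whole range.

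**Figure D4:**
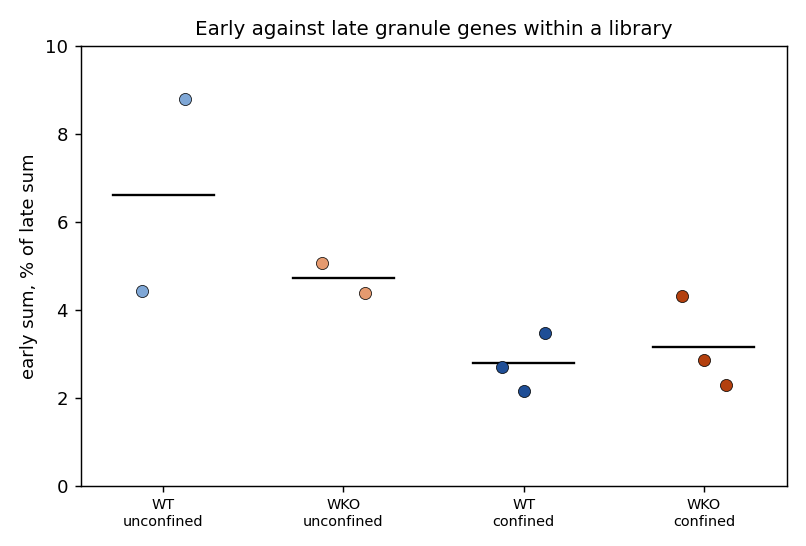
Summed normalized read count of the 4 early genes as a percentage of that of the 4 late genes (linear axis from 0) in each library, as points by group with bars at the group means. The 6 confined libraries lie between 2.15% and 4.32%, and the 4 unconfined ones between 4.39% and 8.79%.

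The genes whose levels most resembled the early set over the 10 libraries, by Pearson's r between log2(normalized read count + 1) and the mean of the set, were Plac8 (r = 0.985), Engase (0.973), Rad9b (0.972), Cebpe (0.969) and Pglyrp1 (0.965). For the late set they were Chil3 (r = 0.997), Plbd1 (0.984), Rab44 (0.982), Pglyrp1 (0.976) and Adgrg3 (0.973), and for the S100 pair Pglyrp1 (0.994), Chil3 (0.988), Rab44 (0.979), Adgrg3 (0.977) and Wfdc21 (0.973). Chil3 encodes the chitinase-like protein Ym1, Pglyrp1 a peptidoglycan-binding granule protein, and Cebpe a C/EBP factor of granulocyte maturation. The points are 10 libraries that share their groups and their scaling, and without the 2 low libraries r stayed between 0.944 (Cebpe with the early set) and 0.996 (Pglyrp1 with the S100 pair) for these genes. Rad9b overlaps the exons of Pptc7 on the other strand over 42.3% of its transcript, so its level is uncertain. Among the members themselves, S100a8 (r = 0.967) and Camp (0.959) were closer to the early set than Ngp (0.877), Lcn2 (0.879), Ltf (0.884) and S100a9 (0.892) were.

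Chil3 illustrates how close the likeness was. Its normalized read count was 1809.7 and 2632 in WT unconfined, 6464 and 5808 in WKO unconfined, 1582, 1706 and 549 in WT confined, and 5184, 5719.7 and 1431 in WKO confined libraries. The 4 highest and the lowest library were those of Ngp and Ltf. Cebpe, at a lower level, had 37.0 and 57.6 in WT unconfined, 105 and 54.7 in WKO unconfined, 25.7, 21.1 and 13.7 in WT confined, and 69.0, 63.2 and 20.4 in WKO confined libraries.

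Other genes of granulocyte precursors and of neutrophils were read beside the granule genes. Of 19 further genes of granulocyte-monocyte precursors, 18 had a mean of at least 10, and 14 of these 18 were higher in WKO in either condition. Their medians on the log2 scale were 0.63 unconfined and 0.71 confined, beside 0.00 in both over all genes tested. In the confined comparison limma called 3 of the 18, all higher in WKO, where it called 2.59% of all genes. They were Ctsc, which encodes the protease that activates the granule serine proteases (difference 1.23, adjusted p = 0.0171), the cytokine receptor gene Flt3 (2.78, adjusted p = 0.0346) and Hdc, which encodes histidine decarboxylase (2.24, adjusted p = 0.0495). Of 17 alternatives 14 kept the call of Ctsc, which was lost without any 1 of the 3 WT confined libraries, 6 that of Flt3 and 5 that of Hdc. Without WT confined replicate 6 limma called none of the 3, and without WKO confined replicate 5 it called 7, among them Cebpe, Fcnb and Myb. In the unconfined comparison limma, edgeR and DESeq2 called 0 of 18, with 1, 2 and 3 at an unadjusted p under 0.05. Among all 12455 genes the counts at that level were 1196, 1179 and 1179. In the confined comparison DESeq2 also called the stem cell factor receptor gene Kit, which was lower in WKO (difference in limma -1.14, adjusted p = 0.0517). Ctsc did not follow the granule genes within the WKO confined group: it stood at 3926 and 4426 in replicates 1 and 2 and at 8159.7 in replicate 5.

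Of 31 further neutrophil genes 28 were tested, of which 24 were higher in WKO unconfined and 23 in WKO confined cells. Their medians on the log2 scale were 1.18 and 1.24, beside 0.00 in both conditions over all genes tested. The 5 that were lower in WKO confined cells were Mmp9, Anxa1, Mmp25, Adam8 and Alox5ap. After confinement 8 of the 28 were higher in WT and 6 in WKO, with medians of -0.58 and -0.63. For confinement limma called only Cxcr4 of the 28, which was higher in WT confined cells (1.91, adjusted p = 0.0235). That call was kept in 11 of 17 alternatives, and limma called 1.16% of all genes for confinement in WT. In confined cells limma called 3 of the 28 higher in WKO: Csf3r, the receptor gene for granulocyte colony-stimulating factor (difference 1.13, adjusted p = 0.0154), the formyl peptide receptor gene Fpr2 (2.21, adjusted p = 0.0297) and the haptoglobin gene Hp (1.54, adjusted p = 0.0415). It called 2 lower: Mmp9, which encodes gelatinase B (-1.97, adjusted p = 0.0185), and Anxa1, which encodes annexin A1 (-0.66, adjusted p = 0.0110), both of which macrophages also make. Among all 12455 genes limma called 172 higher and 150 lower in WKO confined cells. Csf3r, unlike the granule genes, was highest of its group in WKO confined replicate 5, at 1881 normalized reads against 1425 and 1520.2 in replicates 1 and 2. Of 17 alternatives 16 kept the call of Anxa1 and 15 those of Mmp9 and Csf3r, all 3 lost without WT confined replicate 2, but 9 kept that of Hp and 8 that of Fpr2. Leaving out WT confined replicate 6 ended the calls of Fpr2 and Hp, and leaving out WKO confined replicate 5 gave 13 called higher, among them Chil3, Pglyrp1 and Retnlg, and 2 lower. In the unconfined comparison limma and edgeR called 0 of 28, with 15 and 18 at an unadjusted p under 0.05, and DESeq2 called Anxa1 lower. Among all 12455 genes 1196 and 1179 were at an unadjusted p under 0.05 in limma and edgeR, and DESeq2 called 108 lower. Fpr2 shares 91.9% of its transcript with Gm5966 and overlaps Fpr3, and Csf3r shares 43.6% with another annotated transcript, so both values are uncertain.

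The levels of 2 genes of mature neutrophils, picked after their values were seen, are given by library. They do not stand for the whole neutrophil list. Of the 28 genes tested 23 were higher in WKO confined cells, while Mmp9, Anxa1, Mmp25, Adam8 and Alox5ap were lower. Ly6g, the surface marker of mouse neutrophils, had normalized read counts of 24.7 and 9.60 in WT unconfined, 60.2 and 75.4 in WKO unconfined, 7.50, 12.9 and 1.61 in WT confined, and 26.7, 44.2 and 15.6 in WKO confined libraries. Retnlg, a gene of mature neutrophils, had 99.7 and 72.9, then 373 and 282, then 52.5, 39.9 and 24.9, and last 307, 320.0 and 44.3 in the same order of libraries. Ly6g was under 3 reads in WT confined replicate 6, and both genes were higher in the 2 WKO unconfined than in the 2 WT unconfined libraries.

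Regulators of granulocyte and monocyte genes formed another list. Of its 20 genes 19 were tested. After confinement limma called 111 of all 12455 genes higher in WT and 185 in WKO. Among the 19 it called 4 higher in WT and the same 4 in WKO. These were the C/EBP factor gene Cebpb (1.95 in WT, adjusted p = 0.0218, and 1.92 in WKO, adjusted p = 0.0184), Klf4 (3.26, adjusted p = 1.25e-04, and 4.03, adjusted p = 1.14e-05), Egr1 (3.33, adjusted p = 0.00767, and 4.00, adjusted p = 0.00227) and Nfkbiz (5.18, adjusted p = 0.00268, and 4.66, adjusted p = 0.00350), which encodes an atypical IkB protein. Cebpb overlaps the exons of Tmem189 on the other strand over 21.3% of its transcript, so its level is uncertain. None of the 10 members had a higher mean after confinement in either genotype. Klf4 kept both calls in all 17 alternatives, while Egr1 lost that in WT without either WT unconfined library (up to adjusted p = 0.0955) and Nfkbiz lost those in WT and WKO without unconfined replicate 1 of that genotype (adjusted p = 0.0547 and 0.0711). Cebpb kept the call in WT in 12 of 17 alternatives, losing it in edgeR and without WT unconfined replicate 1 or any 1 of the WT confined libraries (up to adjusted p = 0.161), and lost that in WKO without WKO unconfined replicate 1 (adjusted p = 0.272). Between genotypes, limma called 2.59% of all genes in confined cells. Of the 19 it called Klf4 (1.08, adjusted p = 0.0196), Csf3r and the M-CSF receptor gene Csf1r higher in WKO confined cells. Klf4 lost this call without WT confined replicate 2 or 3 (up to adjusted p = 0.0910), and Csf1r (0.47, adjusted p = 0.0464) lost it without WKO confined replicate 5 and without WT confined replicate 6. In unconfined cells limma, edgeR and DESeq2 called 0 of 19, each with 2 at an unadjusted p under 0.05. Among all 12455 genes 1196, 1179 and 1179 were at that level.

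Markers of other cell types moved with the granule genes in part, and their part in the values above was not tested. Among all 12455 genes limma called 0.145% for genotype unconfined, 2.59% for genotype confined and 1.16% for confinement in WT. Of the 18 macrophage markers limma called 6 higher in WKO confined cells (Csf1r, Mertk, Lyz2, C1qa, C1qb and C1qc), with differences of 1.26 for C1qa (adjusted p = 0.00705) and 1.08 for Mertk (adjusted p = 0.00175), and called Mertk in unconfined cells (1.01, adjusted p = 0.0336, kept in 11 of 17 alternatives). Without WT confined replicate 6 it called 2 in confined cells, Mertk and C1qa. For confinement limma called only Cd14 of the 18, which was higher in WKO confined than WKO unconfined cells (1.51, adjusted p = 0.0324, kept in 9 of 17 alternatives). Of the 18, 12 were higher in WKO unconfined and 13 in WKO confined cells, with medians on the log2 scale of 0.12 and 0.21. The summed normalized read count of 8 monocyte genes was 635 to 896 in WT unconfined, 979.7 to 1592 in WKO unconfined, 303 to 416 in WT confined and 1020.1 to 1180.2 in WKO confined libraries, with 2 of the 7 tested called higher in WKO confined cells by limma (Ly6c2, difference 2.11, adjusted p = 0.0218, and F13a1, 1.92, adjusted p = 0.0107). The call of Ly6c2 was lost without WT confined replicate 2 or 6 or WKO confined replicate 2, and that of F13a1 only with the replicate block among 17 alternatives. Ly6c2 shares 43.0% of its transcript with Ly6c1 and is uncertain. The summed B lineage level was 961 to 983 in WT unconfined, 4383 to 4792 in WKO unconfined, 417 to 857 in WT confined and 1686 to 5448 in WKO confined libraries. Of the 6 genes tested, 5 were higher in WKO unconfined and 4 in WKO confined cells. In limma Ighm was called higher in WKO in both conditions (2.52, adjusted p = 0.0483, kept in 6 of 17 alternatives, and 2.47, adjusted p = 0.00551, kept in all 17). Cd79b was called higher in WKO confined cells (1.47, adjusted p = 0.0346, kept in 7 of 17). It was called lower after confinement in WT (-1.76, adjusted p = 0.0381, kept in 5 of 17). Of 9 T and NK cell genes only Cd4 was tested. limma called Cd4 higher in WKO confined cells (0.83, adjusted p = 0.0110, kept in 15 of 17). The 13 basophil, mast cell and eosinophil genes summed to 68.4 to 147 in WT unconfined, 247 to 347 in WKO unconfined, 26.5 to 33.2 in WT confined and 19.2 to 267 in WKO confined libraries. Of these, Cma1, Tpsb2 and Tpsab1 were under 3 reads in every library, and the eosinophil granule gene Prg2 had 0 reads in all 3 WT confined libraries, against 24.7 and 26.9 normalized reads in WT unconfined, 115 and 103 in WKO unconfined and 33.0, 16.8 and 5.99 in WKO confined libraries. limma called Prg2 higher in WKO confined than WT confined cells (adjusted p = 0.0108) and lower after confinement in WT (adjusted p = 0.00767). The first call was kept in all 17 alternatives, and the second was lost without either WT unconfined library (up to adjusted p = 0.0955).

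The B lineage and basophil sums, like the granule genes, were lower in WKO confined replicate 5 than in replicates 1 and 2. A list of 12 stromal genes (collagens, Thbs2, Cxcl12 and others) ran the other way in that library. Its sum was 11670.4 in WKO confined replicate 5, against 3777 and 1069 in replicates 1 and 2, 2742 and 3235 in WKO unconfined, 981 and 1964 in WT unconfined and 235 to 913 in WT confined libraries. Of the 10 stromal genes tested limma called 7 higher in WKO confined cells, among them Thbs2, Cxcl12, Col3a1, Bgn and Fstl1. Without replicate 5 it called 4. Among all genes it called 172 higher in WKO confined cells, and 216 without replicate 5. WT confined replicate 6, the lowest library for most granule genes, had the highest stromal sum of its group, at 913 against 289 and 235, and the lowest macrophage sum of the 10 libraries. Most of that macrophage sum came from Gpnmb (221342) and Lyz2 (100507), and single markers went both ways in this library. Mrc1 (22597.6) was at its highest of the 10 libraries and C1qc at its highest of the group, while Mertk and C1qa were at their lowest of the 10.

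**Figure D5:**
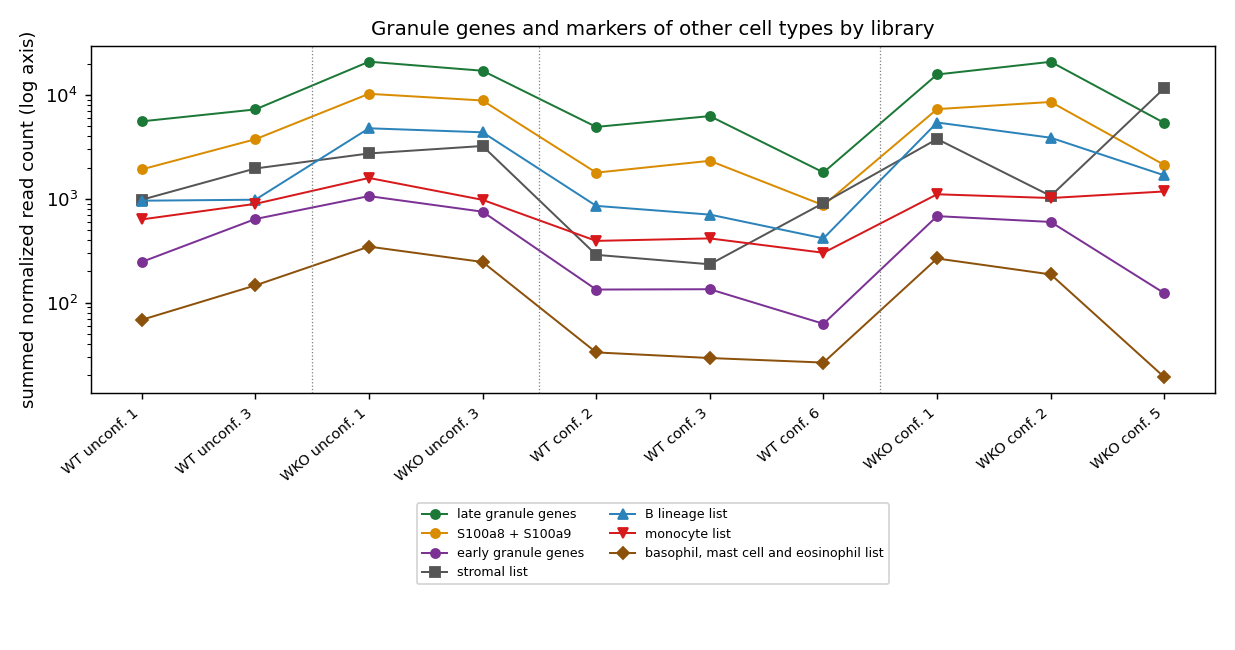
Summed normalized read count (log axis) of the late, S100 and early granule genes and of marker lists of stromal, B lineage, monocyte, and basophil, mast cell and eosinophil genes in each of the 10 libraries; the lines join points of 1 list and imply no order. In WKO confined replicate 5 the late granule sum is 5391 and the stromal sum 11670.4, while in replicate 2 they are 20939.7 and 1069.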

How the data were processed

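RNA was sequenced from 10 libraries in 4 groups taken from the genotype and treatment labels, and no library was left out. The values the authors deposited are a signal, named normalized counts, which by the values themselves are reads divided by 1 factor per library. FastQC, Trim Galore and STAR, and the builds GRCm38 and mm10, are named in the submitters' processing notes, while the counting tool, annotation and use of strand are not given in the sources used here. In every library 100% of the deposited values were whole multiples (tolerance 1e-06) of the value of 1 read, so reads were recovered by division. Symbols came from the table for 33149 identifiers and from GENCODE M21 for 20029. The 3832 identifiers with no symbol stayed in the fit.

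Genes with a mean of at least 10 (12455) were tested on log2(value + 1) with limma 3.58.1 in R 4.3.3, with 1 mean per group over all libraries, a mean-variance trend and Benjamini-Hochberg adjustment at 0.05. A fold on this scale understates the change of low genes. edgeR 4.0.16 and DESeq2 1.42.0 were run on the recovered reads. Scripts were tested on simulated data. The members and lists were chosen with earlier results of these data known. Beside the members, up to 5 called genes a list by smallest p and the 5 most alike genes a set are named. Hp, Csf1r, C1qb, Gpnmb, Mrc1, Kit, Fcnb, Myb, Adam8, Alox5ap, Mmp25, Ly6g and Retnlg were named after their values were seen. Shared sequence was searched with blastn 2.17.0.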

Additional observations from a re-analysis of the deposited data

Results flagged for a closer look

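Lyz2, the lysozyme gene of the macrophage list, was the 1 result picked out, because its libraries moved in opposite directions with confinement in the 2 genotypes. In WT all 3 confined libraries (125934, 122943 and 100507 normalized read counts) lay below both unconfined ones (132963 and 128000.0), while in WKO all 3 confined libraries (174783, 164000.0 and 200203) lay above both unconfined ones (157886 and 161395). The confinement effect in WKO exceeded that in WT by 0.34 on the log2 scale, and this difference did not pass in limma (adjusted p = 0.999). Lyz2 shares 96.0% of its transcript with Lyz1, so its level is uncertain. Groups of 2 and 3 libraries are too small for a check of single outlying samples.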

How the results depend on the processing

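The numbers of genes called by limma at an adjusted p under 0.05 were 18 for genotype unconfined, 322 for genotype confined, 144 for confinement in WT, 214 for confinement in WKO and 0 for the difference between these. DESeq2 called 179, 775, 333 and 486 for the first 4, and no filter on low values gave 10 for genotype unconfined and 186 for genotype confined. Leaving out 1 library at a time gave 4 to 141, 58 to 701, 22 to 397 and 43 to 1043. Leaving out both WT confined replicate 6 and WKO confined replicate 5, chosen after the data were seen, gave 203 for genotype unconfined and 298 for confinement in WT. TMM scaling, edgeR and a pseudocount of 8 kept each count within 1.5 times. The cause of these shifts was not tested. Of the member values under the 17 alternatives 845 moved by less than the spread between replicates and 5 by more, and of the medians of the 3 sets 252 and 3. For the first 4 comparisons, leaving out 1 library cannot move a member value by more than this spread. The tally is therefore no check of those values against the loss of 1 library. Ratios for genes near 3 reads, such as Ctsg, are limited by depth.

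The labels do not say what the replicate numbers mean, and the samples were not treated as pairs. Deviations of same-numbered libraries from their group means correlated at -0.110 to 0.0764. In groups of 2 libraries these deviations mirror each other, so the check of pairing is weak and cannot exclude it. A fit that blocked on the replicate number left 2 residual degrees of freedom. WT confined replicate 6 and WKO confined replicate 5, each alone with its number, dropped out of its comparisons. The block moved the count for genotype unconfined to 245 (118 higher and 127 lower, where the fit without it had 6 and 12), and gave 294, 216, 222 and 0 for the others. It called 6, 8, 1, 0 and 0 of the granule genes, which were chosen with their differences known, so these counts do not test them.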
